A study of Mus musculus with 16 samples.

Results

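The 10 genes described here encode parts of MHC class I antigen presentation: B2m, H2-K1, H2-D1, H2-Q4, H2-Q6, H2-Q7, H2-T23, Tap1, Tap2 and Nlrc5. They were matched by name, and all 10 were present among the 16118 genes of the deposited table. They were chosen by their measured values, after a rise in idKO hearts had been seen, so every difference between idKO and control hearts given for them below is a description without a test. Comparisons of atria with ventricles, and of the atrium and ventricle of the same mouse, were not the contrast of that choice and were tested. The comparisons of atria with ventricles use the same group means as the choice, so they are not fully independent of it. Deviations from the group means, used for the chambers of the same mouse, leave those means out.

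Hearts of 8 adult male littermates were taken 2 weeks after tamoxifen, and polyadenylated RNA of their atria and of their ventricles was sequenced separately. All mice carried floxed alleles of Meis1 and Meis2 on both copies of each gene, and all were given tamoxifen as far as the labels say. The 4 idKO mice also carried 1 copy of an alpha-MHC-MerCreMer transgene, which makes a tamoxifen-activated Cre recombinase in heart muscle cells, and the 4 control mice carried none. The 4 groups of 4 libraries were idKO atrium, control atrium, idKO ventricle and control ventricle, and any effect of the transgene itself cannot be told apart from that of the deletions. Mouse 1 to mouse 4 below are numbers within a genotype, and an atrium and a ventricle with the same number and genotype came from 1 animal.

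MHC class I molecules carry peptides from inside the cell to its surface, where T cells with CD8 and natural killer cells read them. A heavy chain from the H2 genes is held by the light chain β2-microglobulin, the product of B2m. The transporter made of TAP1 and TAP2 brings peptides cut by the proteasome into the endoplasmic reticulum, where they are loaded. NLRC5 acts with RFX, CREB/ATF and NF-Y proteins at a shared group of promoter elements, and interferons raise the whole set. In a resting heart, muscle cells carry little class I at their surface, and endothelial cells and leukocytes carry more.

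The promoters of 5 heavy chain members, H2-K1, H2-D1, H2-Q4, H2-Q6 and H2-Q7, share part of their sequence. RefSeq windows from 250 bases before to 50 after the annotated start (GRCm38.p6) were available for 8 of the 10 members, all but Tap2 and Nlrc5. Stretches of 6 are printed because they carry the elements for which class I promoters are known. Capitals mark, in order of position in the H2 genes, the NF-κB site of enhancer A (GGGNNTTCC), the interferon response element (GAANNGAAA, here on the reverse strand), the X2 box (TGNTGAC) and CCAAT boxes on either strand. The stretches lie at chr2:122147600-122147644 (B2m, plus strand), chr17:34000329-34000464 (H2-K1, minus strand), chr17:35262917-35263051 (H2-D1, plus strand), chr17:35379438-35379572 (H2-Q4, plus strand), chr17:35424671-35424805 (H2-Q6, plus strand) and chr17:35439016-35439149 (H2-Q7, plus strand).
B2m: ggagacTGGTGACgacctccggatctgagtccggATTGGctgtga
H2-K1: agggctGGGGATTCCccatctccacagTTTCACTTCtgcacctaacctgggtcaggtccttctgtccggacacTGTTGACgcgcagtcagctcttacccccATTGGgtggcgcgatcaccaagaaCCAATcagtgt
H2-D1: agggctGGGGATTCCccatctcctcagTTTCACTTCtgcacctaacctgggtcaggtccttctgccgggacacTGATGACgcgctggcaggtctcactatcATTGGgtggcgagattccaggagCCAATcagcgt
H2-Q4: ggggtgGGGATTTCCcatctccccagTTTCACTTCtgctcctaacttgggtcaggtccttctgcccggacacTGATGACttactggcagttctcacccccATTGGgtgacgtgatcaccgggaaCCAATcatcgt
H2-Q6: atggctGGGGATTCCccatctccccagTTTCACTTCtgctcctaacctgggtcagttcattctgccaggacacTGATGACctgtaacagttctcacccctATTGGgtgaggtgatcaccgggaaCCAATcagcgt
H2-Q7: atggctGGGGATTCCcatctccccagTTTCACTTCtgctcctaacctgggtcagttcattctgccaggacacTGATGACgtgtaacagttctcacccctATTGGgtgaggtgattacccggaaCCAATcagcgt

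The 5 printed heavy chain stretches held all 4 elements in the same order, and the H2-Q4 window had a second X2 match on the reverse strand, 32 to 38 bases after the start site and outside the printed stretch. Distances were counted from the first base of 1 element to the first base of the next. They were 20 or 21 bases from the NF-κB site to the interferon response element and 46 from there to the X2 box. From the X2 box to the first CCAAT box they were 27 or 28 bases. In B2m only the X2 box and a CCAAT box were matched. H2-T23 also held these 2 elements, but in the opposite order and with the X2 match on the reverse strand. Tap1 held a CCAAT box alone. Of all 32851 windows searched on both strands, 5.82% held the NF-κB letters (5 of 8 members), 7.52% the interferon letters (5 of 8), 14.1% the X2 letters (7 of 8) and 37.4% CCAAT (8 of 8). The letters were chosen with these windows and the known elements in view, no 2 of the matches overlapped in the printed stretches, and a match is a description of sequence only.

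**Figure D1:**
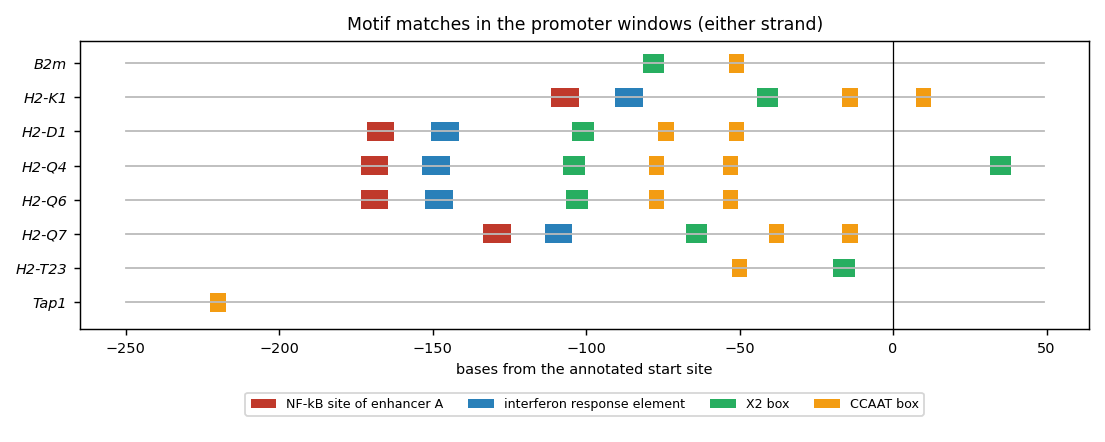
Positions of motif matches on either strand (coloured blocks) in the promoter windows of the 8 members that had one, in bases from the annotated start site at 0. H2-K1, H2-D1, H2-Q4, H2-Q6 and H2-Q7 share 1 order of elements, apart from a second X2 match of H2-Q4 after the start site, and H2-K1 and H2-Q7 have theirs closer to the start site.

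Values are normalised read counts, the deposited counts-per-million (CPM) of effective reads, in which 100% of values could be traced to whole reads. Libraries held 13.1 to 21.8 M (mega) reads, and Nlrc5, the scarcest member, still had 26 to 177 reads in each library. The targeted gene Meis2 averaged 8.82 ± 0.85 in idKO ventricles and 26.8 ± 4.24 in control ventricles (SD, n = 4 each; limma adjusted p = 1.96e-05), but 17.7 ± 1.64 in idKO atria and 20.0 ± 1.48 in control atria (adjusted p = 0.966). Meis1 averaged 23.1 ± 2.29 in idKO ventricles and 27.3 ± 0.77 in control ventricles (adjusted p = 0.236), and 29.7 ± 2.76 in idKO atria and 28.3 ± 2.86 in control atria (adjusted p = 0.986). These are counts over whole genes, so they do not read the floxed exons alone, and in atria neither gene separated the labelled genotypes. Atrial muscle genes separated the chambers as labelled, with Myl7, Myl4, Sln, Bmp10 and Nppa together at 38873 to 43135 in idKO atria and 34814 to 43685 in control atria, against 496 to 1664 in idKO ventricles and 192 to 236 in control ventricles. Nppa made up most of the ventricular sums, at a mean of 1115 in idKO ventricles and 185 in control ventricles. Myl7, Myl4 and Sln were not higher on average in idKO ventricles, and Bmp10 was near the floor in both. The samples are whole tissue, so more cells of a type and more RNA per cell cannot be told apart in any value below.

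Levels per kilobase of the longest coding transcript kept B2m at the top and Tap1 and Nlrc5 at the bottom in all 4 groups, while genes between them changed places. B2m had the highest level per kilobase in all 4 groups, at 309 ± 24.3 in idKO atria, 242 ± 14.8 in control atria, 258 ± 44.9 in idKO ventricles and 178 ± 24.5 in control ventricles (normalised count per kilobase; SD, n = 4 each). H2-K1 and H2-D1, the classical heavy chains, came next. H2-K1 had 195 ± 27.8 and H2-D1 148 ± 16.4 per kilobase in idKO atria, with ranges that overlapped, and in control ventricles their levels were 76.9 ± 12.3 and 77.3 ± 11.7. A wide step separated these 3 genes from the rest: the next highest level per kilobase in idKO atria was H2-T23 at 27.002 ± 2.02. H2-T23, H2-Q4 and H2-Q7 overlapped in range in idKO atria, as did H2-Q6 and Tap2. Tap1 and then Nlrc5 were the lowest in every group, Nlrc5 at 0.94 ± 0.27 per kilobase in idKO atria and 0.53 ± 0.21 in control ventricles.

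B2m (chromosome 2, 122147686 to 122153083) encodes the light chain that every class I heavy chain needs. Its normalised count was 287.3, 270.8, 237.3 and 268.3 in the idKO atria of mice 1 to 4, against 194, 224, 210 and 204 in control atria. In ventricles it was 193, 262, 186 and 248 in idKO mice, against 143, 181, 132 and 157 in control mice. Every idKO library lay above every control library in both chambers. The log2 difference was 0.35 ± 0.07 in atria and 0.53 ± 0.12 in ventricles (SE, n = 4 each, on the log2(value + 1) scale used for all differences below). B2m was the 1 member of 10 without overlap in atria, where 1.52% of 14523 tested genes had all idKO libraries above all controls, and also the 1 of 10 in ventricles, where 3.17% of 13144 did. Because the members were picked on this contrast, nothing is read from these counts.

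H2-K1 (chromosome 17, 33996017 to 34000347) and H2-D1 (chromosome 17, 35262730 to 35267499) encode the classical heavy chains that show peptides to T cells with CD8. H2-K1 stood at 361, 312, 256 and 335 in idKO atria, against 218, 278, 245 and 257 in control atria. In idKO ventricles it stood at 175, 211, 136 and 206, against 109, 149, 108 and 132 in control ventricles. In each chamber the idKO library of mouse 3 fell inside the range of the controls, and the other 3 idKO libraries lay above it. The log2 difference of H2-K1 was 0.33 ± 0.10 in atria and 0.54 ± 0.13 in ventricles. H2-D1 had 347, 305, 267 and 327 in idKO atria, against 220.5, 288.995, 249.9 and 252.2 in control atria. Its ventricular values were 201, 250, 182 and 235 in idKO mice, against 144, 196, 144 and 165 in control mice. Mouse 3 was again the lowest idKO animal in each chamber, inside the control range. The log2 difference of H2-D1 was 0.30 ± 0.09 in atria and 0.41 ± 0.11 in ventricles.

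The heavy chains of the Q region lie close together on chromosome 17, and H2-Q6 and H2-Q7 had the largest log2 differences in ventricles. H2-Q6 (35424850 to 35430055) had 33.5, 35.1, 21.7 and 36.5 in idKO atria, against 12.6, 27.03, 16.8 and 20.4 in control atria. In ventricles it had 15.0, 24.9, 17.7 and 28.7 in idKO mice, against 9.84, 15.3, 8.60 and 15.2 in control mice. A single idKO library overlapped the controls in each chamber, that of mouse 3 in atria and that of mouse 1 in ventricles. Its log2 difference of 0.72 ± 0.21 in atria and 0.77 ± 0.21 in ventricles was the largest among the members in each chamber. H2-Q7 (35439155 to 35443773), a source of the Qa-2 antigen, had 42.2, 32.7, 24.4 and 44.9 in idKO atria, against 17.2, 33.6, 20.2 and 24.1 in control atria. Its values in idKO ventricles were 20.6, 27.6, 14.6 and 32.6, against 10.4, 18.2, 13.1 and 17.8 in control ventricles. Mice 2 and 3 of the idKO atria, and mouse 3 of the idKO ventricles, fell within the control range. The log2 difference of H2-Q7 was 0.58 ± 0.21 in atria and 0.62 ± 0.22 in ventricles. H2-Q4 (35379617 to 35385290) differed less, at 32.2 to 50.7 in idKO atria, 32.5 to 38.6 in control atria, 31.2 to 42.0 in idKO ventricles and 20.5 to 34.7 in control ventricles. Its log2 difference was 0.28 ± 0.12 in atria and 0.39 ± 0.14 in ventricles, with overlap in each chamber.

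Sequence shared among heavy chains limits how far these genes can be told apart. Of the 60-base stretches in their annotated transcripts, the length of the reads, 25.3% of those of H2-Q6, 22.1% of H2-Q7, 14.1% of H2-Q4, 9.83% of H2-T23, 8.14% of H2-D1 and 5.89% of H2-K1 also occurred in another gene. H2-Q7 shared most with H2-Q10 and H2-Q5, and H2-Q6 shared most with H2-Q7. The share was 0.392% in Tap2, 0.264% in Tap1 and 0 in B2m and Nlrc5. RSEM divides such reads by estimate, so values of the Q region genes are the least certain.

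H2-T23 (chromosome 17, 36029773 to 36032855) encodes the heavy chain of Qa-1, which shows leader peptides of other class I chains to natural killer cell receptors. It had 44.0, 39.7, 37.5 and 37.8 in idKO atria, against 33.4, 37.4, 37.9 and 33.3 in control atria. In ventricles the values were 26.1, 31.0, 26.9 and 30.9 in idKO mice, against 26.1, 21.7, 21.0 and 22.9 in control mice. The groups touched at their edges in each chamber, and the log2 difference was 0.16 ± 0.08 in atria and 0.31 ± 0.10 in ventricles.

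Of the transporter genes, Tap2 had the smallest log2 difference of all members in each chamber. Tap1 (chromosome 17, 34187553 to 34197225) had 20.8, 16.7, 15.0 and 24.5 in idKO atria, against 15.3, 18.2, 15.3 and 16.9 in control atria. In idKO ventricles it had 13.5, 11.2, 11.4 and 19.4, against 8.29, 14.1, 10.4 and 11.8 in control ventricles. Mouse 4 was the highest idKO animal in both chambers, and the groups overlapped widely. Its log2 difference was 0.20 ± 0.14 in atria and 0.28 ± 0.18 in ventricles. Tap2 (chromosome 17, 34203527 to 34216321), the partner subunit, spanned 42.1 to 48.7 in idKO atria, 42.5 to 47.1 in control atria, 31.2 to 41.4 in idKO ventricles and 28.6 to 40.6 in control ventricles. The idKO and control ranges of Tap2 nearly coincided, with log2 differences of 0.02 ± 0.07 in atria and 0.01 ± 0.11 in ventricles.

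Nlrc5 (chromosome 8, 94434356 to 94527272), the activator of class I promoters, was scarce and variable. Its values were 8.15, 5.77, 5.11 and 9.58 in idKO atria, against 2.44, 6.48, 4.34 and 4.73 in control atria. Ventricles had 3.99, 5.63, 3.97 and 10.2 in idKO mice, against 2.16, 6.03, 3.67 and 4.28 in control mice. Control mouse 2 in atria, and control mice 2 and 4 in ventricles, reached into the idKO range, and idKO mouse 4 was the highest animal in each chamber. The log2 difference was 0.59 ± 0.24 in atria and 0.44 ± 0.28 in ventricles.

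**Figure D2:**
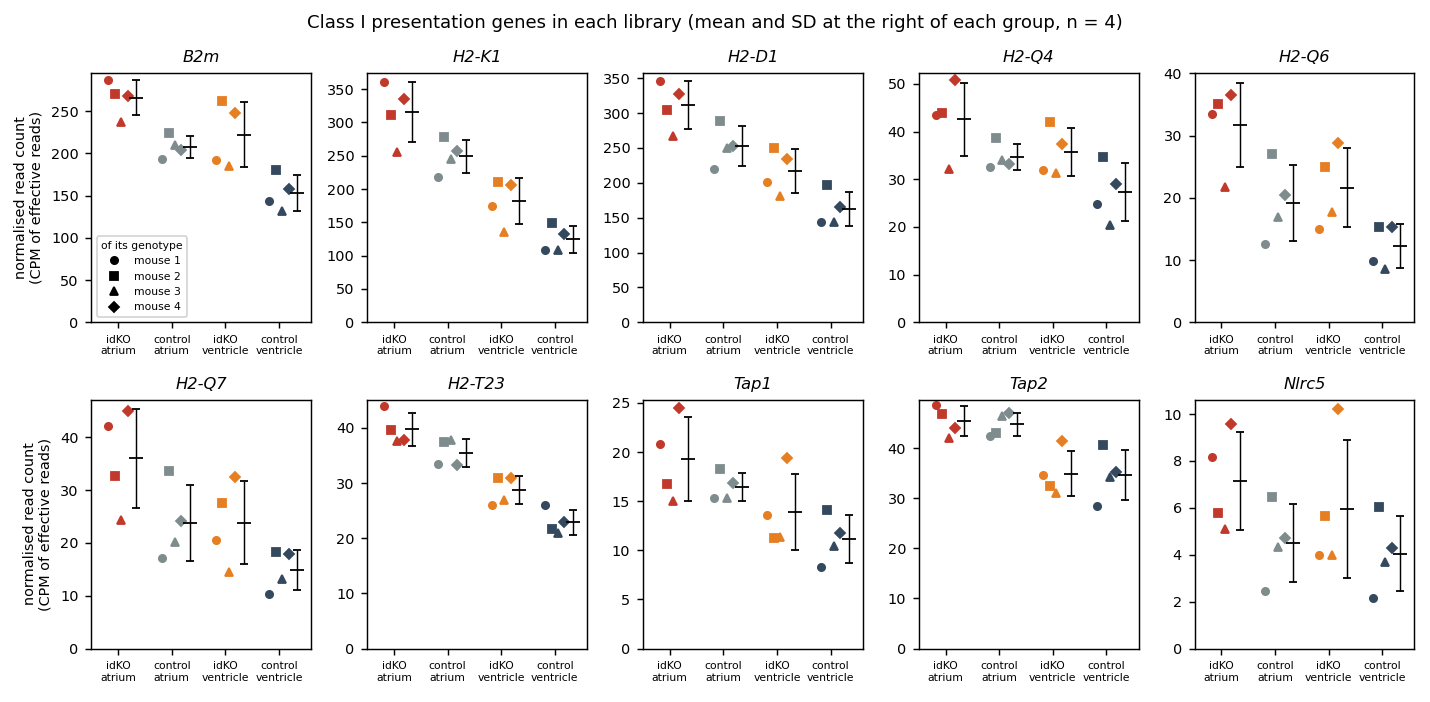
Normalised read count (CPM of effective reads) of each member in the 16 libraries, by group, with a symbol for each mouse of its genotype and the group mean and SD (n = 4) in black at the right of the group. B2m has every idKO library above every control library in each chamber, the atria lie above the ventricles for most genes, and Tap2 has nearly the same range in idKO and control mice.

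Over the 10 members, the median log2 difference between idKO and control was 0.32 in atria (0.02 to 0.72) and 0.43 in ventricles (0.01 to 0.77), beside a median over all tested genes of -0.0004 in atria and -0.0076 in ventricles. All 20 differences were positive, as the choice of members would favour. The difference in atria minus that in ventricles ran from -0.20 for H2-K1 to 0.15 for Nlrc5, with a median of -0.10 beside 0.011 over all genes, and its SE was at least 0.12 in every member.

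Markers of cells that carry class I or class II were read beside these values. The summed level of 7 markers of cells with MHC class II was 448 to 568 in idKO atria and 359 to 420 in control atria, and 367 to 543 in idKO ventricles and 263 to 351 in control ventricles. In ventricles 3 of its 5 tested genes (H2-Aa, H2-Ab1 and Cd74) passed the test as higher in idKO, where 0.533% of all tested genes did. In atria 0 of 7 did, where 0.0207% of all tested genes did. Cd74, H2-Aa, H2-Ab1 and H2-Eb1 made up nearly all of these sums, and the scarce markers did not all follow. Ciita averaged 3.72 in idKO atria and 4.09 in control atria, and Flt3 1.03 and 1.22. Itgax averaged 0.88 in idKO ventricles and 1.08 in control ventricles. Itgax in atria, and Ciita and Flt3 in ventricles, were higher on average in idKO mice. The sum of 10 endothelial markers was 1089 to 1221 in idKO atria and 977 to 1075 in control atria. In ventricles it was 971 to 1065 in idKO mice and 971 to 1029 in control mice. Of these 10 markers, 0 passed in atria and 0 in ventricles. Macrophage markers summed to 498 to 601 in idKO atria and 473 to 597 in control atria, where 0 of 10 passed. In ventricles they summed to 454 to 546 in idKO mice and 401 to 425 in control mice, where Lyz2 alone of 10 passed as higher in idKO. The class II sums in each chamber, the endothelial sums in atria and the macrophage sums in ventricles did not overlap between genotypes. Lymphocyte markers, of which 5 of 12 were in the table, summed to only 2.998 to 3.90 in idKO ventricles and 3.11 to 4.49 in control ventricles. In atria the lymphocyte sum was 3.37 to 49.4 in idKO mice and 15.8 to 55.6 in control mice. No marker in the table was at 0 reads throughout a group, and the part of any of these cells in the members' values was not tested.

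The atria carried more class I RNA than the ventricles in mice of each genotype. In idKO mice 7 of the 10 members were called higher in atria (limma on all 16 libraries, adjusted p under 0.05), where 26.8% of 14871 tested genes were called higher and 27.1% lower. In control mice 9 of the 10 were called higher, where 28.2% of genes were called higher and 28.7% lower. None was called lower in mice of either genotype. The median log2 difference of the members was 0.46 in idKO mice and 0.57 in control mice, beside 0.021 and 0.017 over all genes.

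H2-K1 had the largest chamber difference of the members. It was 0.80 ± 0.13 (SE) in idKO mice (limma adjusted p = 5.34e-05) and 1.005 ± 0.13 in control mice (adjusted p = 3.57e-06), and in each genotype every atrium lay above every ventricle. H2-D1 differed by 0.52 ± 0.11 in idKO mice (limma adjusted p = 0.000681) and 0.64 ± 0.11 in control mice (adjusted p = 8.89e-05), again with no overlap. For H2-T23 the difference was 0.46 ± 0.09 in idKO mice (limma adjusted p = 0.000193) and 0.61 ± 0.09 in control mice (adjusted p = 7.21e-06), and its groups too were separate. These 3 heavy chains and Tap2 were called in both genotypes under each alternative that was run.

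Tap2, with nearly equal values in idKO and control hearts, was higher in the atria of both, by 0.38 ± 0.10 in idKO mice (limma adjusted p = 0.00332) and 0.37 ± 0.10 in control mice (adjusted p = 0.0038). B2m had a chamber difference of 0.27 ± 0.11 in idKO mice (limma adjusted p = 0.04) and 0.44 ± 0.11 in control mice (adjusted p = 0.00162). Tap1 differed by 0.45 ± 0.18 in idKO mice (limma adjusted p = 0.0364) and 0.54 ± 0.18 in control mice (adjusted p = 0.0133). The chambers of B2m and Tap1 overlapped in idKO mice and were separate in control mice.

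H2-Q7 passed in idKO mice at 0.60 ± 0.24 (limma adjusted p = 0.0461) and in control mice at 0.63 ± 0.24 (adjusted p = 0.0345). H2-Q6 gave 0.55 ± 0.24 in idKO mice (limma adjusted p = 0.0583) and 0.60 ± 0.24 in control mice (adjusted p = 0.0381), and H2-Q4 gave 0.24 ± 0.14 in idKO mice (adjusted p = 0.168) and 0.35 ± 0.14 in control mice (adjusted p = 0.0434). Nlrc5 passed in neither, at 0.28 ± 0.29 in idKO mice (limma adjusted p = 0.438) and 0.13 ± 0.29 in control mice (adjusted p = 0.728). The calls of the Q region genes, and in idKO mice those of B2m and Tap1, sat close to the threshold. With the mouse as a replicate block, H2-Q4 and H2-Q6 were called in idKO mice too, making 9 of 10. With 1 mouse left out, 4 members were called in idKO mice without mouse 1 or without mouse 3, B2m, H2-Q7 and Tap1 being lost each time, and 6 or 7 in control mice.

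Markers of other cell types were read in the same fits, where 26.8% of all genes were called higher in atria and 27.1% lower in idKO mice, and 28.2% higher and 28.7% lower in control mice. All 9 fibroblast markers were called higher in atria in mice of each genotype, with sums of 1860 to 2796 in idKO atria against 1170 to 1965 in idKO ventricles, and 1598 to 2590 in control atria against 1095 to 1322 in control ventricles. Of the class II markers, 1 of 7 was called higher in the atria of idKO mice and 6 of 7 in those of control mice. For macrophages it was 1 of 10 in idKO mice and 4 of 10 in control mice. Lymphocyte markers were called higher in atria for 2 of 5 in idKO mice and 4 of 5 in control mice. The macrophage counts in both genotypes are few and do not stand apart from those shares. Endothelial markers were mixed, with 3 higher and 4 lower of 10 in idKO mice and 3 higher and 5 lower in control mice, also near the background. Of 9 cardiomyocyte markers, 7 were called lower in atria in each genotype, and 1 higher in idKO mice. They summed to 52097 to 60438 in idKO atria against 80896 to 92306 in idKO ventricles. In control mice the sums were 53845 to 63307 in atria against 90494 to 96317 in ventricles. That list holds genes that differ by chamber, such as Myl3 at a mean of 97.7 in control atria and 7360 in control ventricles. The 5 atrial muscle markers summed the other way, with means of 40940 in idKO atria, 1144 in idKO ventricles, 40625 in control atria and 216 in control ventricles. Neither sum measures the amount of muscle. The part of any of these cell types in the chamber difference of the members was not tested. The scaling also matters here, since with values as a share of all reads the median of all genes shifted to 0.44 in idKO mice and 0.51 in control mice. Relative to the median of all genes, the members' median was 0.43 in idKO mice and 0.55 in control mice as deposited, and 0.47 in idKO mice and 0.57 in control mice as shares of reads.

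**Figure D3:**
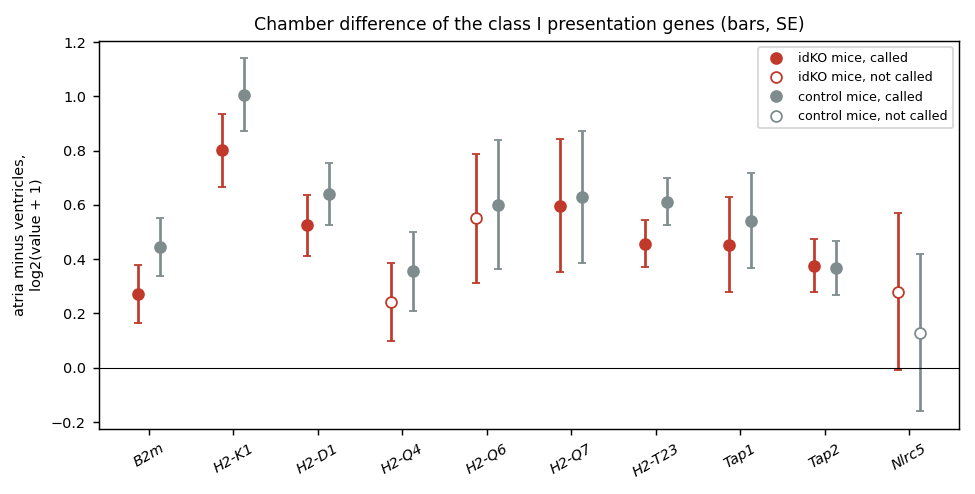
Difference between atria and ventricles on the log2(value + 1) scale, with its SE, for each member in idKO mice (red) and control mice (grey); filled points passed the adjusted threshold. All points are above 0, H2-K1 is the highest in each genotype, and Nlrc5 is open in both.

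Animals differed from each other within a group, and a mouse's atrium and ventricle shared the direction in some mice only. Of the idKO atria, mouse 3 had the lowest value of the group for all 10 members, and of the idKO ventricles for 7. Control mouse 2 was the highest for 8 members in atria and for 9 in ventricles, and control mouse 1 the lowest for 9 in atria and for 4 in ventricles. idKO mouse 4 was the highest for 5 members in atria and for 5 in ventricles, and the lowest for 0 in each. In some other mice the chambers parted. The highest value was in idKO mouse 1 for 5 members in atria but for 0 in ventricles. For idKO mouse 2 it was 0 members in atria and 5 in ventricles. Control mouse 3 was the lowest for 0 members in atria and for 6 in ventricles.

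Agreement between the chambers was measured over the 8 mice as the correlation between the 2 chambers of the deviations from group means. Pearson's r was 0.87 for Tap1 (exact permutation within genotype, two-sided, p = 0.00521, adjusted over all genes 0.380), 0.81 for Nlrc5 (exact p = 0.033, adjusted 0.473) and 0.79 for H2-Q7 (exact p = 0.0382, adjusted 0.486). Spearman's rho for these was 0.88 (exact p = 0.00694), 0.81 (exact p = 0.0451) and 0.83 (exact p = 0.026). These 3 of 10 members were under an unadjusted 0.05 with r above 0, where 8.23% of 14871 genes were. After adjustment over all genes, 0 genes of any kind passed, and 0.00174 is the smallest p that the pairings of 4 and 4 mice allow.

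H2-K1 (r = 0.75, rho = 0.67), H2-Q6 (0.65, rho = 0.74), H2-D1 (0.64, rho = 0.64), H2-Q4 (0.51, rho = 0.55), B2m (0.42, rho = 0.40) and Tap2 (0.10, rho = 0.33) were positive without passing, with exact p from 0.0747 to 0.766 for r. H2-T23 went the other way, with r = -0.66 and rho = -0.64 (exact p = 0.113 for r). The median r of the members was 0.64, beside 0.24 over all genes and 0.41 over 93 other genes of the pathway. These values changed with the mice included. With the 2 mice farthest from the median in atria left out for each member, r was 0.83 for Tap1, 0.67 for H2-Q6 and 0.63 for H2-Q4. It was 0.61 for Nlrc5, 0.53 for H2-Q7 and 0.18 for H2-K1, and below 0 for B2m, H2-D1, Tap2 and H2-T23. Leaving out the extremes narrows the range, which by itself can lower r, and the same was not done for all genes. Without idKO mouse 3, a single member was under 0.05, and without idKO mouse 1 there were 6, and with any other mouse left out 1 to 3.

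**Figure D4:**
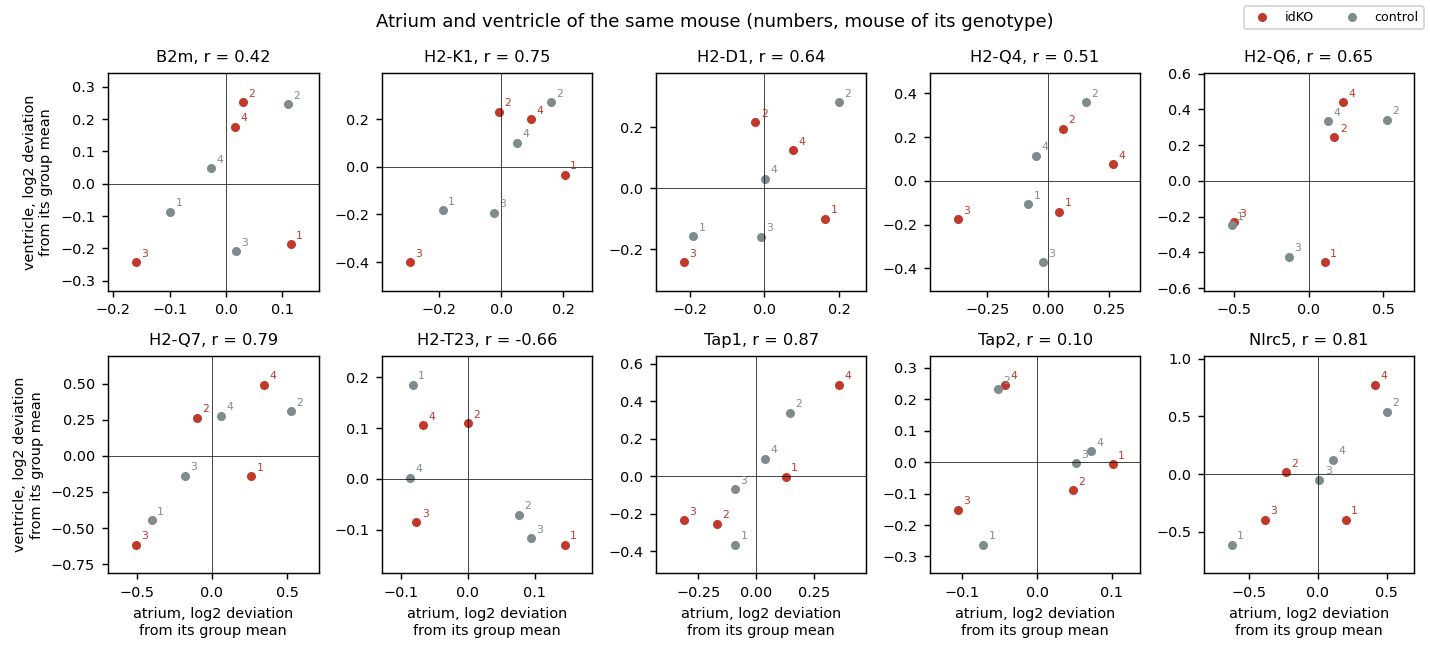
Deviation of each mouse from its group mean in the atrium (horizontal) and in the ventricle (vertical), on the log2(value + 1) scale, for each member; red points are idKO mice, grey points control mice, and numbers are mice within a genotype. Tap1, Nlrc5 and H2-Q7 run from lower left to upper right, and H2-T23 runs the other way.

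Across libraries the members were positively correlated with each other. Over the 16 libraries all 45 pairs were above 0, with a median r of 0.84 (0.42 to 0.99), but these profiles hold the genotype difference on which the members were chosen, so nothing is read from them. With the group means removed, 43 of 45 pairs stayed positive with a median of 0.73 (-0.04 to 0.96), where 50.1% of all pairs of tested genes were positive. These values describe libraries that share mice, scaling and, for the heavy chains, some sequence. The genes outside the 10 whose profile over the 16 libraries, genotype difference included, was most like the members' mean were H2-T22 (r = 0.91), Gadd45g (0.90), Tor2a (0.90), Cebpd (0.88), H2-DMb1 (0.88), Ifi207 (0.87), Bst2 (0.87) and Pnpla6 (0.86). With group means removed, the closest were Psmb8 (0.86), Erh (0.85), Tmem88 (0.83), Zmiz1os1 (0.83), Cryz (0.83), Rpl31 (0.83), Slamf9 (0.82) and Renbp (0.82). Of these, Zmiz1os1 was near the floor, with group means of 0.60 to 1.31, and Slamf9 was low, at 2.47 to 2.81. Both sets were picked as the highest r among the tested genes, and no p was taken for them.

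The rest of the pathway was taken from 9 lists of 120 genes, of which 94 were in the table. In ventricles 86 were tested, and 2 were called higher and 2 lower in idKO, where 0.533% of all tested genes were higher and 1.50% lower. Their median log2 difference was 0.10, with 60 above 0, beside -0.0076 over all genes. The 4 genes called belong to 4 different lists, and none of them encodes a class I chain.

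Iigp1, an interferon-induced GTPase that attacks the vacuoles of intracellular parasites, rose in idKO ventricles. It had 91.1, 91.6, 82.9 and 113 in idKO ventricles, against 66.2, 70.1, 71.2 and 66.1 in control ventricles, without overlap (log2 difference 0.45 ± 0.09, limma adjusted p = 0.0149). Oas2, an interferon-induced sensor of double-stranded RNA, had 7.25, 12.2, 9.27 and 9.82 in idKO ventricles, against 6.41, 4.98, 4.48 and 4.77 in control ventricles (0.78 ± 0.16, limma adjusted p = 0.0276). Its groups were separate as well. Ide, insulin-degrading enzyme, a protease that can cut peptides in the cytosol, fell to 111, 141, 157 and 107 in idKO ventricles, against 222, 196, 225 and 161 in control ventricles (-0.64 ± 0.13, limma adjusted p = 0.0189). Psme1, a subunit of the PA28 activator of the proteasome, fell to 135, 114, 107 and 110, against 141, 151, 150 and 157 in control ventricles (-0.36 ± 0.08, limma adjusted p = 0.0269). The calls were not firm: over 19 alternatives Iigp1 was lost in 4, Ide in 6, and Oas2 and Psme1 in 9 each.

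In atria 92 pathway genes were tested and limma called 0, where 0.0207% of all tested genes were called higher. At an unadjusted p under 0.05 there were 7, and DESeq2 and edgeR on the recovered reads also called 0, with 9 each at an unadjusted 0.05. The share of all tested genes under the unadjusted threshold was not counted, so nothing is read from these numbers. Among the pathway genes with the smallest p in limma were Ide, Bst2 and Irf8. Ide was at 60.2, 97.4, 107 and 72.7 in idKO atria, against 139, 122, 138 and 105 in control atria (-0.60 ± 0.16, limma adjusted p = 0.816). Bst2, which tethers budding virus to the cell surface, had 22.9, 24.9, 20.7 and 23.3 in idKO atria, against 18.4, 17.2, 20.4 and 18.4 in control atria (0.29 ± 0.09, limma adjusted p = 0.966). Irf8, a transcription factor of myeloid cells, ran from 5.70 to 10.3 in idKO atria and from 9.60 to 11.2 in control atria (-0.48 ± 0.16, limma adjusted p = 0.966).

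By list, the medians of the genotype differences all lay below that of the members in each chamber, as the choice of members would favour. For the other class I heavy chains, in ventricles the 4 tested genes had a median log2 difference of 0.29, and in atria the 7 tested, 2 of them below 0, a median of 0.13. H2-T22, a non-classical heavy chain, was at 0.38 ± 0.11 in ventricles and did not pass in limma (adjusted p = 0.113), while DESeq2 on the recovered reads called it. Antiviral interferon-induced genes had a median of 0.22 in ventricles (17 tested) and 0.13 in atria (18), and interferon-induced GTPases 0.12 in ventricles (15) and 0.20 in atria (15). The 3 inducible proteasome subunits and 2 activator subunits had a median of 0.19 in ventricles and 0.10 in atria. Among the 12 genes of peptide loading and trimming, which include the chaperones calnexin (Canx) and tapasin (Tapbp), the median was -0.10 in ventricles and 0.02 in atria. Transcription factors of class I promoters had medians of 0.07 in ventricles and -0.004 in atria, and interferon receptors and signalling genes 0.02 in ventricles and 0.04 in atria.

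**Figure D5:**
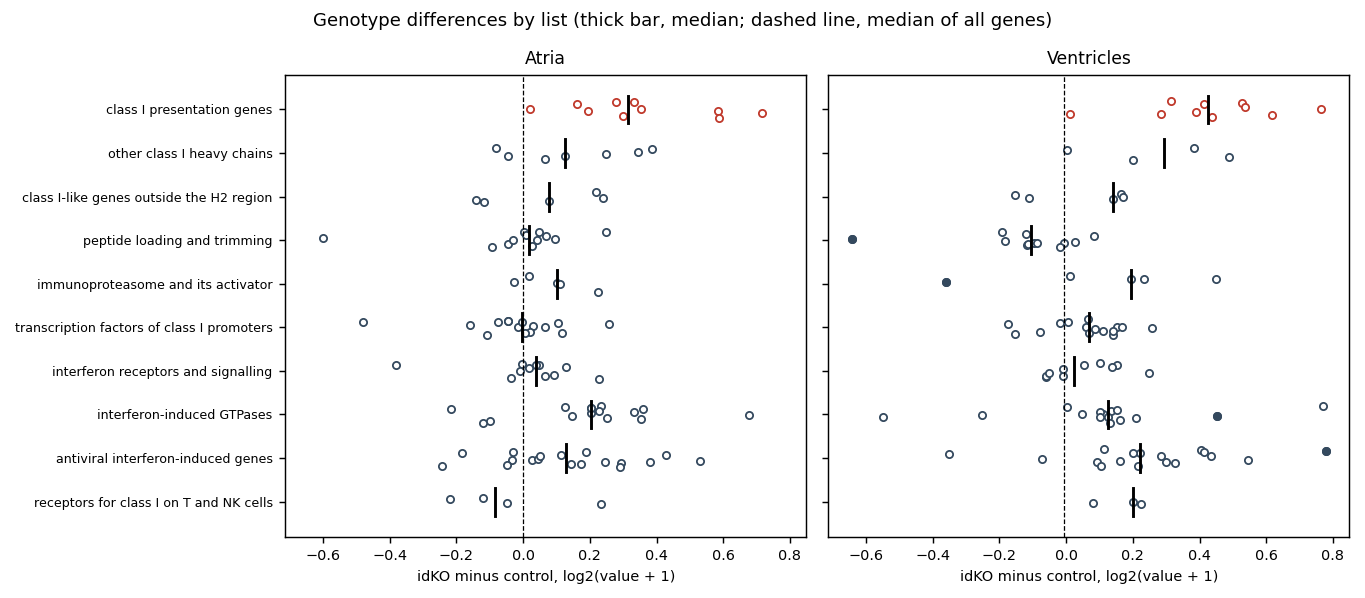
Difference between idKO and control on the log2(value + 1) scale for every tested gene of the members (red) and of 9 pathway lists (blue), in atria and in ventricles. Thick bars are medians, the dashed line is the median of all genes, and filled points passed the adjusted threshold (Iigp1 and Oas2 higher, Ide and Psme1 lower, all in ventricles); members were not tested here.

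Whether the genotype difference of these pathway genes differed between chambers was tested by interaction on 93 of them. Psme1 alone was called, at 0.46 (limma adjusted p = 0.0425), where 0.296% of all genes were. It stood at 72.5, 66.7, 67.7 and 67.7 in idKO atria, against 63.3, 64.4, 67.0 and 60.9 in control atria, so its idKO libraries were mostly above the controls there and below them in ventricles. The call was lost in 11 of 18 alternatives, among them leaving out any single control mouse.

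Between atria and ventricles, 23 of 93 pathway genes were called higher and 19 lower in idKO mice, and 35 higher and 19 lower in control mice. Beside the shares of all genes (26.8% higher and 27.1% lower in idKO mice, 28.2% and 28.7% in control mice), the number called is near the background, and the genes below describe the pathway rather than set it apart. As shares of all reads the split in control mice was 60 higher and 6 lower, but the median of all genes also shifted to 0.51. The shares of all genes given above belong to the deposited scaling, so nothing is read from that split. Values in parentheses here and in the next paragraph are log2 differences, control atria minus control ventricles, with limma adjusted p from 2.42e-12 (Ifngr2) to 0.0356 (Psmb8). In control mice, among other heavy chains, H2-T22 (0.79), H2-Q10 (1.14), H2-T10 (0.81) and H2-K2 (0.64) were called higher and H2-T24 (-0.71) lower (H2-Q10 shares stretches with H2-K1 and H2-Q7). Of the class I-like genes, Mr1 (1.07), Cd1d1 (1.09), Procr (1.16) and Fcgrt (0.19) were higher and Hfe (-0.82) lower. The loading group divided: Tapbp (0.69), Tapbpl (0.38), Pdia3 (0.30) and Uggt1 (0.31) were higher, while Canx (-0.49), Hspa5 (-0.67), Erap1 (-0.43), Lnpep (-0.55), Ide (-0.67), Thop1 (-0.39) and Tpp2 (-0.45), most of them peptidases, were lower.

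The proteasome genes divided in the same comparison, with Psmb8 (0.36) and Psmb9 (0.51) higher in control atria and Psmb10 (-0.68), Psme1 (-1.21) and Psme2 (-0.55) lower. Psmb8 and Psmb9 lie next to Tap1 and Tap2 in the H2 region and encode inducible catalytic subunits. Of the factors that act at class I promoters, Rfx5 (0.43), Rfxank (0.55), Nfya (0.41), Creb1 (0.36), Nfkb1 (0.28), Irf8 (0.80) and Ciita (0.67) were higher and Atf1 (-0.69) lower. Interferon genes went both ways. Ifnar2 (0.27), Ifngr1 (0.21), Stat2 (0.30), Tyk2 (0.39), Socs3 (1.16), Gbp2 (0.53), Gbp8 (1.35), Oasl2 (0.84), Ddx58 (0.45), Ifih1 (0.48) and Xaf1 (0.53) were higher in control atria. Ifngr2 (-1.31), Gbp6 (-1.49), Gbp10 (-0.99), Iigp1 (-1.62), Rsad2 (-1.10) and Ifit2 (-0.78) were lower. Pira2 (0.87) and Pirb (0.58), receptors of myeloid cells, were higher. Of the 2 identifiers named Lilrb4a, 1 was called higher (0.45) and the other was at -0.14 ± 0.50 and did not pass (limma adjusted p = 0.825).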

How the data were processed

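RNA from 16 samples was sequenced as single reads of 60 bases from 20 ng of RNA, per the labels' protocols. Per the submitters' processing notes, the tools included cutadapt and RSEM 1.3.1, with GRCm38. No source used here names the scaling tool. The deposited values are a normalised signal (CPM of effective reads). Multiplied by 1 effective library size per sample and less an offset of 0.5, 100% of them gave whole reads within 0.01, so reads could be recovered. Effective size over reads averaged 0.959 in idKO atria, 0.947 in control atria, 0.687 in idKO ventricles and 0.639 in control ventricles.

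Genes at 1 CPM or more in at least 4 libraries of a fit were tested in R 4.3.3 with limma 3.58.1 (trended prior, two-sided). Values entered as log2(value + 1), p was adjusted over all genes tested by Benjamini-Hochberg, and calls were made under 0.05. This scale understates the change of low genes. Genotype contrasts used the 8 libraries of a chamber, and chamber contrasts and the interaction all 16. DESeq2 1.42.0 and edgeR 4.0.16 on recovered reads were alternatives. Scripts were tested on simulated data. Mouse agreement used exact permutation in Python 3.11.15. Since Lilrb4a has 2 identifiers in the table, the 94 pathway genes there count as 95 in the fits.

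Libraries with 1 mouse number in their titles came from 1 animal and were treated as paired in the alternatives with a block. Over genes, deviations from the group means in the chambers of a mouse correlated at 0.169 to 0.296, in all 8 mice above any value with another mouse of the genotype. No replicate pair agreed within sampling noise (chi-square over degrees of freedom of at least 8.08 in 24 pairs). The members and the gene lists were chosen with earlier results of these data known. Genes were named by a rule: all members, pathway genes called in a comparison or else the 4 with the smallest p in a genotype contrast, and the 8 most like the members' mean profile over 16 libraries, with predicted, clone and Rik names passed over. A gene that falls under the rule is not reported here; it stays in the fits and counts. Gene positions are from GENCODE M21 on GRCm38, and promoter sequences are from RefSeq on GRCm38.p6.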

Additional observations from a re-analysis of the deposited data

Results flagged for a closer look

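Psme1 differed between chambers in its genotype difference, by 0.46 on the log2 scale (limma interaction, adjusted p = 0.0425; idKO libraries lower than controls in 4 of 4 ventricles and higher on average in atria). In 68 groups of 4 libraries, for the 10 members and 7 named pathway genes, 0 had a library that stood apart from the others by the gap test used, where chance gives about 1 in 20.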

How the results depend on the processing

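Of the 10 members, 9 were called between control chambers and 7 between idKO chambers. With 1 mouse left out the counts were 6 to 7 in control mice and 4 to 6 in idKO mice. With the mouse as a replicate block they were 9 in each genotype. Taking each member under each alternative, 122 of 140 kept direction and side of the threshold in control mice and 121 of 140 in idKO mice. The 1 that turned was Nlrc5 between control chambers, at -0.17 under quantile normalisation, and the cause was not tested. Of the pathway genes, 4 were called in idKO ventricles, 1 with no filter, 2 as shares of reads, 0 without a trended prior, 3 with the mouse as a random replicate block, and 1 to 6 with a library left out. In idKO atria 0 were called in each alternative run. The interaction call was 0 as shares of reads, under quantile normalisation, without a trended prior and in edgeR, 1 with the replicate block, and 0 to 1 with a mouse left out. Between control chambers the replicate block called 58 pathway genes in place of 54. The 3 members whose chambers agreed by mouse were 1 to 6 with a mouse left out. All 20 genotype differences of the members stayed positive in the joint fit with the replicate block. Tap2 was the 1 member with any below 0, and at least 19 of 20 stayed positive with a library left out. Nlrc5, with 26 to 177 reads a library, is the member that depth limits most.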
